A study of Mus musculus with 3 samples.

Results

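The SLAM family, a group of immune cell surface receptors, and its adaptor gene Sh2d1a were described in mouse bone marrow-derived dendritic cells (BMDC). The 10 genes were chosen by name, as the SLAM receptor genes Slamf1, Slamf6, Slamf7, Slamf8, Slamf9, Cd84, Ly9 and Cd244, the ligand gene Cd48 and the adaptor gene Sh2d1a, out of 19938 genes that a probe set names alone. Expression had been measured on 3 Affymetrix whole-transcript arrays, 1 for each of 3 samples, and all 3 samples form 1 group. Marrow cells of C57BL/6J mice without any further treatment or genetic change had been grown for 9 days in murine GM-CSF and murine IL-4 at 20 ng/ml each. There is no control or contrast, so the data describe which of the genes were detected and how far the arrays differed. Separate mice or cultures are not stated in the labels, so any spread between samples may be technical, and the number of arrays limits the precision. The BMDC were bulk cultures that can hold other marrow cells, and a lower value can mean fewer cells of a type or less RNA per cell, which cannot be told apart.

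SLAM receptors belong to the immunoglobulin superfamily, and most of them bind a copy of themselves on a neighbouring cell, whereas Cd244 binds Cd48. The tails of most of them carry tyrosine motifs that are bound by small SH2 adaptors, namely SAP (encoded by Sh2d1a), EAT-2 (Sh2d1b1) and, in mice, ERT (Sh2d1b2). With an adaptor bound the receptors can activate Src family kinases, and without one they tend to recruit inhibitory phosphatases. Slamf8 and Slamf9 have short tails without these motifs, and Cd48 is held in the membrane by a lipid anchor. The family is best known from T and NK cell help and killing, and in macrophages and dendritic cells some members take part in phagocytosis.

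Of the 10 genes, 9 lie on chromosome 1, and Sh2d1a lies on the X chromosome. RefSeq promoter windows (GRCm38.p6) matched 8 of the 10 genes, all but Ly9 and Sh2d1a. The 250 bases before the annotated start are shown 5′ to 3′ for 4 genes. These are Cd84, Slamf7 and Slamf8, the 3 members that no olfactory or vomeronasal receptor probe set reached on the arrays, and Cd244, the detected member nearest to background. Capitals mark matches on either strand to 5 short motifs, chosen with the members' sequences in view.

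Cd84, chr1:171839447-171839696, plus strand: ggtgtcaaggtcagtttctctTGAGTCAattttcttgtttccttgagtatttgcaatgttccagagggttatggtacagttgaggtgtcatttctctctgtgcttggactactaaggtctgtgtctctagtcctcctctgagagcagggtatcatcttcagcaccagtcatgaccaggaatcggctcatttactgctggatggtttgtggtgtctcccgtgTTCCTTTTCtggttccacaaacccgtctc
Slamf7, chr1:171649000-171649249, minus strand: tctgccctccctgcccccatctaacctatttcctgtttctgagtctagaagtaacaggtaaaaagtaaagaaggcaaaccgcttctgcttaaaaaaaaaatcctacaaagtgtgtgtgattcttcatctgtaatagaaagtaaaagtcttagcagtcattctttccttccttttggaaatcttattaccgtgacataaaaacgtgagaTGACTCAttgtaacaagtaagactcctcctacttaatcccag
Slamf8, chr1:172590569-172590818, minus strand: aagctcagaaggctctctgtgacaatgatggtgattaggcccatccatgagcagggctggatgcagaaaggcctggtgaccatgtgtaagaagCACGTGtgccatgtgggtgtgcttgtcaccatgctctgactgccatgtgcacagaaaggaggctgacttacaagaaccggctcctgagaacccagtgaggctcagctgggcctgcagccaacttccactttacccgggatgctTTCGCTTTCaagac
Cd244, chr1:171558943-171559192, plus strand: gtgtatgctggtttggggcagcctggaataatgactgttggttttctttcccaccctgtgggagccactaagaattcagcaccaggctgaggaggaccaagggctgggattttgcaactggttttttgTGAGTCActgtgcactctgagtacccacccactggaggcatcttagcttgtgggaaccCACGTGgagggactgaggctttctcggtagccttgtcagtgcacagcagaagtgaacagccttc

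Capitals stand for TGANTCA, the site of AP-1 factors, CACGTG, the E-box of basic helix-loop-helix factors, and GAAANNGAA, a repeat of the kind that IRF factors bind. The other motifs searched were GAGGAAGT for PU.1 and TTCNNNGAA for STAT factors. An AP-1 match lay 229 to 223 bases before the start in Cd84, 42 to 36 before it in Slamf7 and 122 to 116 before it in Cd244. It was thus found in 3 of 8 member windows, against 6.75% of 32851 promoter windows of the same length. The E-box was found in Slamf8, Slamf9 and Cd244 (3 of 8), against 6.02% of all windows. The IRF repeat was found 29 to 21 bases before the start of Cd84 and 14 to 6 before that of Slamf8 (2 of 8), against 7.13% of all. The PU.1 motif was found in Slamf9 alone, in its last 8 bases, against 2.44% of all, and no member window held the STAT motif, against 7.02%. No matches overlapped, and a match shows the letters, not binding. Since the motifs were chosen with these windows in view, the counts cannot show that a motif is more common in the members than elsewhere. The windows of Slamf1, Slamf6 and Cd48 held none of the 5 motifs.

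Detection was judged against 1212 probe sets for olfactory and vomeronasal receptors, genes with little known activity in blood cells. A gene counted as above background if it passed the 95th percentile of these probe sets on all 3 arrays. These limits were 5.54, 5.54 and 5.55 log2 units in replicates 1, 2 and 3. Above them lay 9 of the 10 genes, against 60.6% of all 19938 genes. With the 99th percentile as the limit the count was also 9, against 46.2% of all genes. All 8 receptor genes and the ligand gene Cd48 were detected, and the adaptor gene Sh2d1a was not. Levels are log2 values of probe sets that bind with different strength. They place each gene against background but do not rank transcript amounts between genes.

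**Figure D1:**
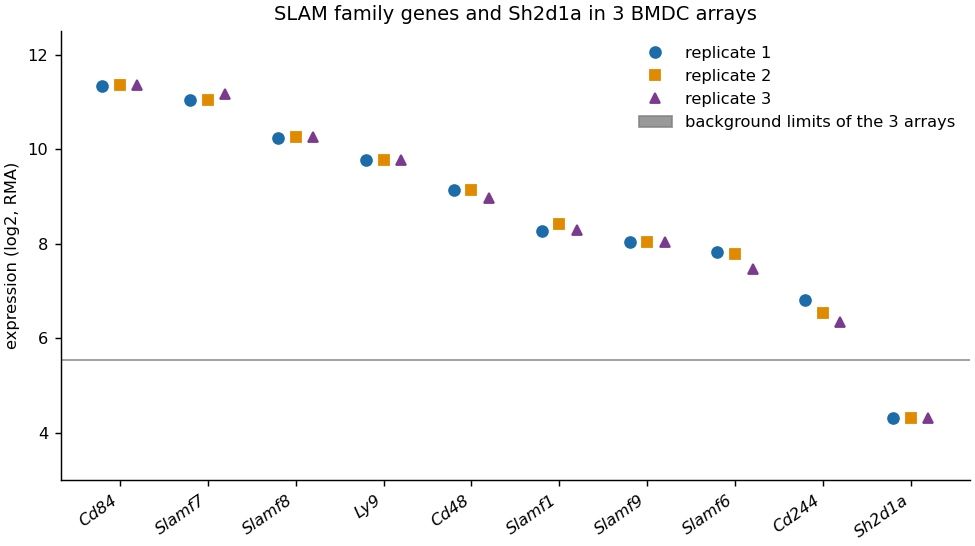
Expression (log2, RMA) of the 10 genes in each of the 3 arrays (circle, square and triangle for replicates 1, 2 and 3), with the background limits of the arrays as a grey line near 5.54. Points of Sh2d1a lie below the line and those of the other 9 genes above it; the order along the axis follows the mean level and is no ranking of transcript amounts.

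Among the receptors with motif-bearing tails, Cd84, a self-binding receptor also found on platelets and mast cells, had 11.35, 11.35 and 11.36 log2 units in replicates 1, 2 and 3. Slamf7, a receptor that aids phagocytosis together with the integrin Mac-1, had 11.05, 11.05 and 11.18. No receptor probe set of the background reached either of these levels. Replicate 3 was the highest for both genes, by 1.09-fold over the lowest array for Slamf7 and by 1.01-fold for Cd84. Of the detected genes with unequal values 36.2% were highest in that array, and these were 2 of 7 such members.

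Ly9, a self-binding receptor of T and B cells, had 9.78 in each array, and the 3 deposited values were equal to the last digit. Slamf1, which can sense outer membrane proteins of bacteria and follow them into the phagosome, had 8.28, 8.42 and 8.28. Each of these levels was reached by 1 of the 1212 background probe sets. Slamf1 was thus highest in replicate 2, by 1.10-fold over the lowest array.

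Slamf6, known as Ly108 in mice and best described on T and B cells, had 7.83, 7.80 and 7.47 log2 units in replicates 1, 2 and 3. Cd244, the receptor for Cd48 that is typical of NK cells and also found on mast cells and some myeloid cells, had 6.81, 6.53 and 6.35. Both were detected in every array and lowest in replicate 3. Cd244 was the detected member nearest to background, 1.27 log2 units over the limit in replicate 1 and 0.798 in replicate 3, and 7 of the 1212 background probe sets reached its mean. Slamf6 was reached by 3 of them. Cd244 also stayed above the stricter limit in replicate 3, where the 99th percentile of the background probe sets was 6.33.

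The receptors with short tails were both detected. Slamf8, which is made by activated macrophages and dendritic cells and restrains their oxidase, had 10.25, 10.27 and 10.27 log2 units in replicates 1, 2 and 3. Slamf9 had 8.04 in each array, equal to the last digit, and 2 background probe sets reached that level. No background probe set reached Slamf8, whose lowest and highest arrays differed by 0.019 log2 units.

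The ligand gene Cd48, expressed on most blood cells, had 9.15, 9.15 and 8.98 log2 units in replicates 1, 2 and 3. Replicates 1 and 2 were equal and replicate 3 was lower by 1.12-fold. Cd2, which encodes another receptor for Cd48 in mice and is typical of T and NK cells, had 5.62, 5.31 and 5.09, above the limit in replicate 1 alone. RNA of Cd48 and of its receptor gene Cd244 was thus detected in all arrays, and Cd2 did not count as detected.

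Sh2d1a, whose loss causes X-linked lymphoproliferative disease in humans, had 4.32 in each array. This lay 1.21, 1.21 and 1.22 log2 units under the limits, and 457 of the 1212 background probe sets (37.7%) were at or above it. The same 3 values were deposited for 157 other probe sets, so the figure is a step that many dim probe sets share and not a level measured for Sh2d1a. None of the other 9 genes shared its 3 values with another probe set. Of the other adaptors, Sh2d1b1 (EAT-2, found in NK and antigen-presenting cells) was detected at 7.65, 7.71 and 7.65, and Sh2d1b2 (ERT, best described in NK cells) was not, at 4.72, 4.68 and 4.68. Of the 3 adaptor genes, only Sh2d1b1 was thus above background.

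The genes that act with SLAM receptors were detected broadly. Of 35 listed genes 31 were measured, and 29 of these 31 (93.5%) were above background, also at the stricter limit, against 60.6% and 46.2% of all genes. Their median level was 8.62 log2 units, against 6.12 over all genes, and the median of the 10 SLAM genes was 8.71. Those not above background were the adaptor gene Sh2d1b2 and Cd2. All 3 measured Src family kinase genes were detected, among them Fyn, the kinase that SAP recruits, at 8.63, 8.63 and 8.60, and Fgr at 6.99, 6.97 and 6.76.

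All 5 genes of the inhibitory arm were detected. Ptpn6 and Ptpn11, which encode the phosphatases SHP-1 and SHP-2, each had 8.95 in every array. All 10 measured genes that relay the signal were detected, with the exchange factor genes Vav1 at 8.44 and Vav2 at 7.29 in every array. Prkcq, a protein kinase C known from T cells and named after its values were seen, had 7.75, 7.59 and 6.80, 1.93-fold higher in replicate 1 than in replicate 3. It was the only one of the 29 detected pathway genes that spanned more than 0.5 log2 units.

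Partners in phagocytosis were detected in 10 of 10 cases. Becn1 and Pik3c3, which encode parts of the lipid kinase complex that joins Slamf1 at the phagosome, had 8.11 and 7.93 in every array. Itgam and Itgb2, the chains of the integrin Mac-1, had 11.38, 11.41 and 11.41, and 12.10, 12.10 and 12.12. Cybb, the oxidase subunit that Slamf8 restrains, had 12.22, 12.13 and 12.05. Itgam, Itgb2 and Cybb were named after their values were seen. Slamf7, Slamf8 and Slamf1 were thus detected together with these partners in all arrays.

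**Figure D2:**
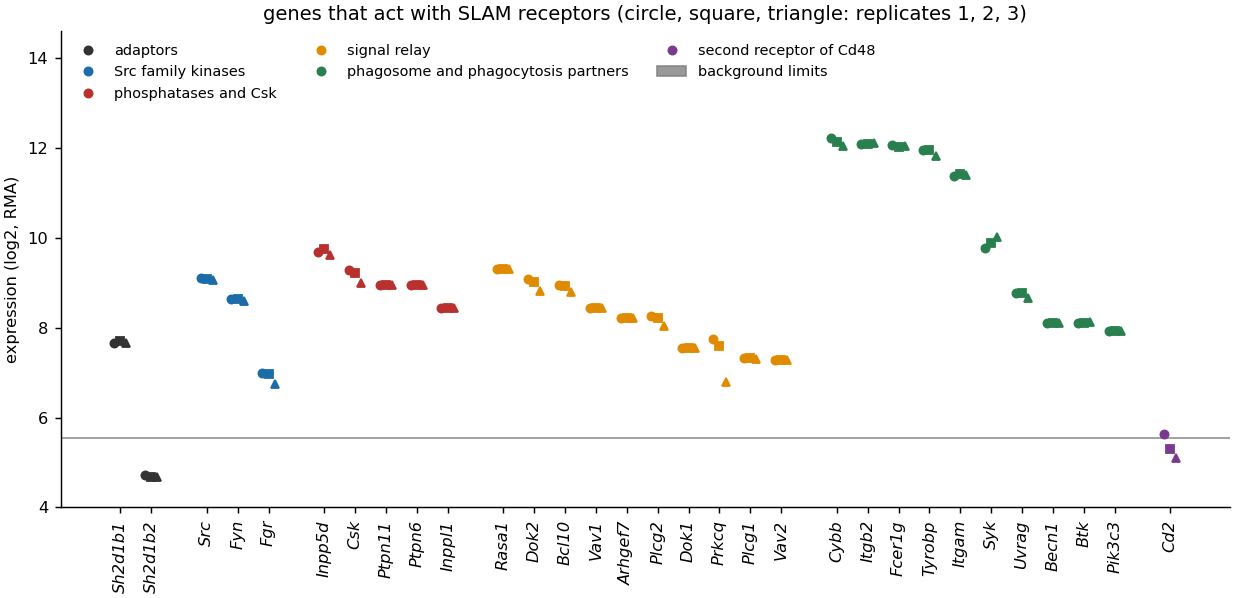
Expression (log2, RMA) of the 31 measured genes that act with SLAM receptors, grouped by role in colour, with the 3 arrays as circle, square and triangle and the background limits as a grey line. All genes but Sh2d1b2 and Cd2 lie above the line in all 3 arrays, and the points of Prkcq lie farthest apart among the detected genes.

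On chromosome 1 the RefSeq table lists 28 protein-coding genes from Cd244 to Slamf8, the members included. The order begins with Cd244, Ly9, Slamf7, Cd48, Slamf1, Cd84 and Slamf6, a run of 7 members with 1 other gene among them. Then follow 14 other genes before Slamf9 and 4 between Slamf9 and Slamf8. Of the 17 measured genes between the members 12 (70.6%) were above background, against 9 of 9 members on this chromosome and 60.6% of all genes. Detected neighbours included Ncstn, a subunit of the gamma-secretase protease, at 9.41, 9.41 and 9.36, and Copa, a coat protein of transport vesicles, at 10.67, 10.65 and 10.65. Vangl2, a planar polarity gene and the first measured gene after Slamf6, lay below background at 5.26 in each array. The cluster is known to differ between inbred mouse strains, and the values here are those of C57BL/6J alone.

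**Figure D3:**
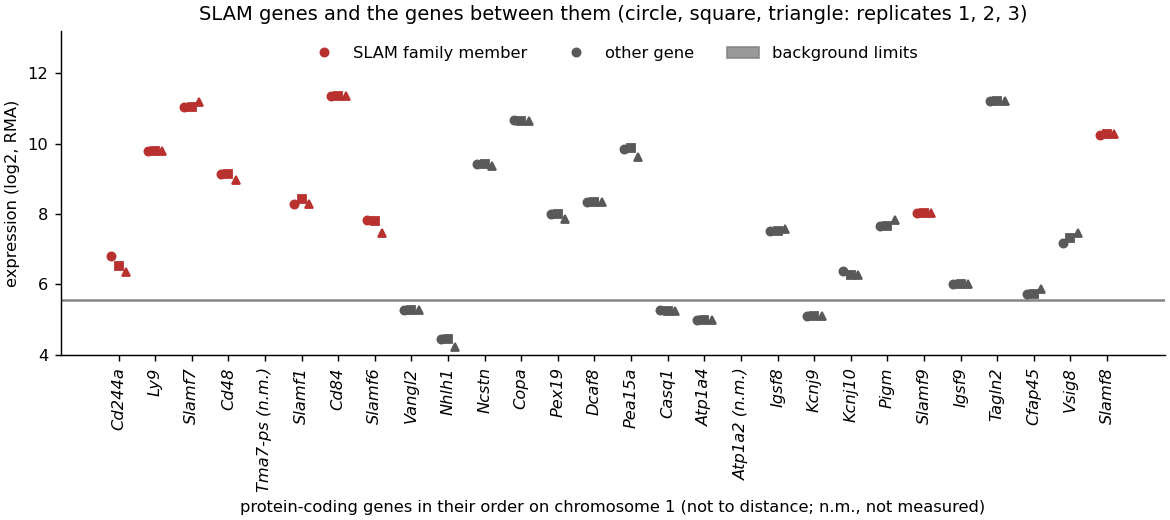
Expression (log2, RMA) of the 28 protein-coding genes from Cd244 (listed as Cd244a) to Slamf8 in their order on chromosome 1, members in red and other genes in grey, with the 3 arrays as circle, square and triangle. The 9 members lie above the background limits (grey line), as do 12 of the 17 other measured genes.

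Differences between the arrays stayed below 0.5 log2 units in the detected members, but their median span was wider than that of all detected genes. None of the 9 detected members spanned more than 0.5 log2 units between its lowest and highest array, against 2.61% of all detected genes. With so few members a count of 0 is near that share and does not mark the members as stable. Values were equal to the last digit in all arrays for 3 of the 10 genes (Ly9, Slamf9 and Sh2d1a), against 57.1% of all genes, and for 2 of the 9 detected members, against 46.5% of all detected genes. An SD of 0 in these genes is no measure of precision. The median span was 0.13 log2 units over the 9 detected members and 0.0096 over all detected genes. The second median is held down by the 46.5% of detected genes with equal values, whose span is 0, so the gap partly reflects those equal values. Array medians were 5.91 in each replicate, but RMA normalizes the arrays to a common distribution, so equal medians are no sign of likeness. Pearson's r across all probe sets, which are not independent, ran from 0.994 to 0.996 between arrays.

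Cd244 and Slamf6 varied most. Cd244 averaged 6.56 ± 0.23 (SD, n = 3) and spanned 0.46 log2 units or 1.38-fold, a span reached by 2.95% of all detected genes. Slamf6 averaged 7.70 ± 0.20 (SD, n = 3) and spanned 0.37 log2 units or 1.29-fold, reached by 4.47%. The spans of Cd48 (0.16), Slamf1 (0.14) and Slamf7 (0.13) were reached by 15.1%, 17.8% and 19.7% of detected genes. Those of Slamf8 (0.019) and Cd84 (0.017) were reached by 46.2% and 46.8%. These shares count the many detected genes with 3 equal values, whose span is 0. Among detected genes with unequal values alone, the spans of Cd244 and Slamf6 were reached by 5.51% and 8.36%. Those of Cd48, Slamf1 and Slamf7 were reached by 28.3%, 33.4% and 36.9%, and those of Slamf8 and Cd84 by 86.4% and 87.6%.

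Of the 7 detected members with unequal values, 3 were lowest in replicate 3 (Slamf6, Cd244 and Cd48), against 37.8% of all such genes. With so few members this count is near that share and does not mark them as low in replicate 3. Replicate 2 minus replicate 3 was 0.33 log2 units in Slamf6, 0.19 in Cd244 and 0.16 in Cd48. Another 3 were lowest in replicate 1 (Slamf1, Slamf8 and Cd84), against 24.5%, and none was lowest in replicate 2, against 9.12%. Their margins were slight. Replicate 1 minus replicate 3 was -0.00049 in Slamf1 and -0.0166 in Slamf8, and replicate 1 minus replicate 2 was -0.0079 in Cd84, so these 3 give no clear direction. Slamf7 had equal lowest values in replicates 1 and 2 and was 0.13 log2 units higher in replicate 3. The members thus did not all shift together, as Slamf6, Cd244 and Cd48 were lower in replicate 3 and Slamf7 was higher. Without replicate 1, 5 members were lower in replicate 3 than in replicate 2. Slamf1 then joined the other 3 by 0.14 log2 units and Slamf8 by 0.002 only.

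Markers of lymphocytes were low in the same array as Slamf6, Cd244 and Cd48. All 12 measured T cell marker genes were above background, and 10 at the stricter limit, against 60.6% and 46.2% of all genes. The mean level over the list was 7.45, 7.25 and 6.95 log2 units in replicates 1, 2 and 3. Cd3e and Cd3d, parts of the T cell receptor complex, had 9.09, 8.79 and 8.15, and 6.90, 6.47 and 6.10. Of 13 NK cell markers 8 (61.5%) were above background, close to the share of all genes, and 7 at the stricter limit. The list's mean level was 7.08, 6.92 and 6.51. Klrb1c, the gene of the NK1.1 antigen, had 6.51, 6.45 and 5.94, while the activating receptor gene Ncr1 lay below background at 4.23 in each array. So did the receptor genes Klrd1 (4.89), Klrk1 (4.52), Klre1 (3.39) and Klra8 (3.94), which were picked with their values in view. The other detected genes of the NK list, named with their values in view, were Gzma, Gzmb, Prf1, Eomes, Tbx21, Nkg7 and Il2rb. Of the detected genes with unequal values, 8 of 10 T cell genes and 8 of 8 NK list genes were lowest in replicate 3, against 37.8% of all such genes. Whether the T cell and NK lists reflect separate cells was not tested.

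The same array was low in other lists, so low values there were not particular to lymphocyte markers. Of the detected pathway genes with unequal values, 13 of 19 were lowest in replicate 3, against 37.8% of all such genes. The mast cell and basophil list had 4 of 10 genes above background and 2 at the stricter limit, against 60.6% and 46.2% of all genes. Its mean level was 5.90, 5.97 and 5.18 log2 units in replicates 1, 2 and 3. Cpa3, a mast cell protease gene, had 7.38, 7.54 and 5.38, and the basophil protease gene Mcpt8 had 5.88, 5.97 and 4.68, so both lay below the limit in replicate 3 alone. The megakaryocyte and platelet list had 6 of 6 genes above background and 4 at the stricter limit. Its means were 7.78, 7.62 and 7.27, with Pf4 at 10.65, 10.39 and 9.59 and Ppbp at 8.04, 7.56 and 6.64. The neutrophil list had 4 of 11 above background and 0 at the stricter limit. Its means were 5.98, 5.90 and 5.29, with Ly6g at 6.73, 6.80 and 4.86 and S100a8 at 5.88, 5.78 and 5.56. Ly6g passed the limit in replicates 1 and 2 but not in replicate 3. So did Lcn2, Retnlg and Cxcr2, named with their values in view. The counts require all arrays and thus do not show that neutrophil RNA was absent from replicates 1 and 2. The part of any of these cells in the levels of Slamf6, Cd244 and Cd48 was not tested.

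Markers of B and plasma cells were detected in part. Of 9 B cell markers 2 were above background and 0 at the stricter limit, against 60.6% and 46.2% of all genes. List means were 4.998, 4.97 and 4.91 log2 units in replicates 1, 2 and 3. Cd79a, a chain of the B cell receptor complex, lay below background at 4.59, 4.59 and 4.26, and its partner Cd79b lay above it at 6.41, 6.40 and 6.23. Of 7 plasma cell markers 4 (57.1%) were above background and 3 at the stricter limit, with means of 6.67, 6.69 and 6.70. Sdc1, which macrophages can express as well, had 9.97, 10.14 and 10.31, and Jchain, the joining chain of secreted antibodies, lay below background at 3.04 in each array.

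Markers of dendritic cells and macrophages were detected in most cases. Of 12 dendritic cell markers 9 (75%) were above background, also at the stricter limit, against 60.6% and 46.2% of all genes. List means were 8.84, 8.90 and 8.85 log2 units in replicates 1, 2 and 3. Itgax, the gene of CD11c, had 11.91, 11.92 and 11.91, and the class II gene H2-Ab1 had 12.31, 12.36 and 12.42. Single markers of this list went opposite ways between the arrays, so its mean hides differences. Ccr7, a chemokine receptor of mature dendritic cells, had 10.15, 10.50 and 9.74, lowest in replicate 3, whereas Clec9a, a receptor for dead cells, had 9.27, 9.38 and 9.70 and the transcription factor gene Irf8 had 10.06, 10.17 and 10.33, both highest there. Flt3, Dpp4 and Xcr1 were not above background. The choice of these 6 genes followed a look at their values. Of 8 measured macrophage markers 6 (75%) were above background, also at the stricter limit, with means of 8.23, 8.20 and 8.17. Adgre1, an adhesion receptor gene that marks mouse macrophages, had 10.25, 10.18 and 10.04, and Csf1r had 11.03, 10.94 and 10.77, while Cd163 and Vsig4, named after their values were seen, lay below background at 4.44 and 3.27 in each array.

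**Figure D4:**
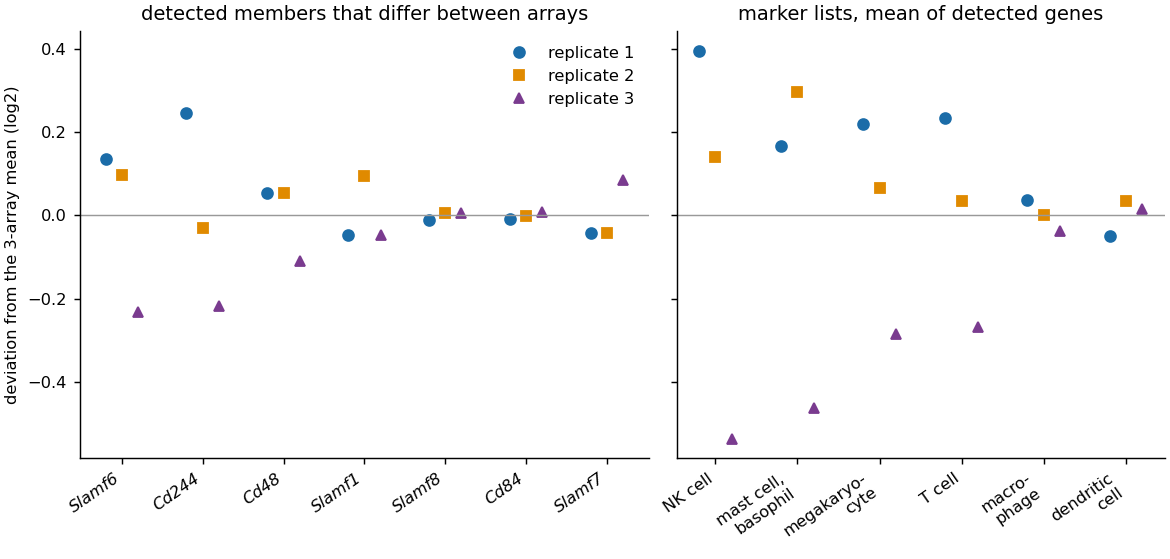
How far each array lay from the mean of the 3 arrays, in log2 units, for the 7 detected members with unequal values (left) and averaged over the detected genes of 6 marker lists (right), with replicates 1, 2 and 3 as circle, square and triangle. Replicate 3 is lowest for Slamf6, Cd244 and Cd48 and for 5 of the 6 lists, and is the highest array for Slamf7 and, by little, for Cd84. The B cell, neutrophil and plasma cell lists are not drawn, and their replicate 3 deviations were -0.058, -0.075 and 0.026. These averages leave out genes that passed the limit in replicates 1 and 2 only, among them Ly6g, Cpa3 and Mcpt8. They thus understate the fall in replicate 3 for the neutrophil and the mast cell and basophil lists. Over all 11 measured neutrophil genes the mean levels were 5.98, 5.90 and 5.29.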

How the data were processed

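Total RNA (150 ng per sample) of 3 BMDC samples was amplified, labelled with biotin and hybridised to 1 array each, per the labels' protocols. The authors deposited log2 values made with RMA, as the submitters' processing notes name it. As a method RMA corrects background, quantile normalizes arrays and summarizes probes by median polish. The RMA software and the genome build are not given in the sources used here. The platform annotation names 1 gene for 21789 of the 35556 probe sets and several for 1621, and it lacks the other 12146. Each member had 1 probe set naming it alone and none naming it with others. All 10 members matched the RefSeq table by Entrez identifier. In 15926 probe sets (44.8%) the deposited log2 values were identical in all arrays.

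Calls were computed with pandas (version 2.3.3) and tested on simulated data. No test between groups was possible. The members and gene lists were chosen with earlier results of these data known. Named were all members, the adaptors, the first 2 measured genes of each role or marker list, pathway genes whose call went against most of their role and up to 4 neighbours on the chromosome; others are marked. No gene was sought for a pattern like a member's, since 3 arrays of 1 group give no usable measure. Alternatives covered the limit, the call on the mean, the probe set of a gene, probe sets naming several genes, centring, the span threshold and each left-out replicate.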

Additional observations from a re-analysis of the deposited data

How the results depend on the processing

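The counts of detected members (9) and of detected pathway genes (29) were the same under each alternative limit, call, probe set choice, centring and left-out replicate. For the members, only the stricter limit could have lowered the count. Centring moves values and limits alike, and the call on the mean or a left-out replicate could only add members. Most of these equal counts are therefore no sign of stability. The count of detected members spanning more than 0.5 log2 units was 0, and a wider threshold, a stricter limit or fewer arrays could not raise it; it was also 0 with the call on the mean and with centring. The count of members with identical values was 3, and 0 with each array centred on the median of detected genes, since equal values then receive unequal shifts. With 1 replicate left out it ranged from 3 to 5. The count of members lowest in replicate 3 was 3, and 3 to 5 with replicate 2 or replicate 1 left out; without replicate 3 it has no value. Each member had a single probe set, so the choice of probe set could not change a member's value, and with 3 arrays a mean can move little when 1 is left out, so the members' mean levels say nothing about stability here. No paired analysis was possible because all samples form 1 group. The number of arrays and the equal deposited values limit what can be said of the spread.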
